A study of Mus musculus with 24 samples.

Results

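Troponins and tropomyosins are the calcium-sensing proteins of the thin filament, and 9 of their genes were followed across mouse cardiomyocytes in which members of the myocardin family of SRF coactivators were deleted or targeted by guides. The 9 genes, Tnnt1, Tnnt2, Tnni1, Tnni3, Tnnc1, Tpm1, Tpm2, Tpm3 and Tpm4, were chosen by symbol and made up 9 of the 23337 genes in the deposited count table. All 9 were among the 12281 genes that passed the filter on low counts. The study deposited 24 RNA-seq libraries of cardiomyocytes that had been released from the heart by Langendorff perfusion, sorted by FACS and collected at 4 weeks of age, with 6 libraries in each of 4 groups. TKO libraries came from mice with the genotype Mrfta-/-; Mrtfb-F/F on the Rosa-Cas9/Cas9 background, given AAV-Myocd-sgRNA. DKO libraries came from the same genotype given AAV-Cre. MKO libraries came from Rosa-Cas9/Cas9 mice given AAV-Myocd-sgRNA, and Ctrl libraries from Rosa-Cas9/Cas9 mice given AAV-Cre. Mrfta is the labels' spelling of Mrtfa, F marks a floxed allele, and every group carried the Cas9 transgene and received a virus at P1. The TKO and DKO groups therefore differ in the virus given, as do the MKO and Ctrl groups, and the labels do not say whether the guide virus also carries Cre. The labels do not tie the 6 libraries of a group to separate animals, and p-values here measure spread between libraries that may be technical.

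Tropomyosin lies along the actin filament and blocks the sites that myosin heads bind. The troponin complex holds it there: troponin T anchors the complex to tropomyosin, troponin I holds the filament in its blocked state, and troponin C binds calcium and releases the block. Around birth, rodent cardiomyocytes replace the slow skeletal troponin I of the fetal heart (Tnni1) with the cardiac form (Tnni3), and in adult ventricle troponin T is almost entirely the cardiac form (Tnnt2) and tropomyosin almost entirely alpha-tropomyosin (Tpm1). SRF, the partner of the myocardin family, binds the CArG box, a motif known from the promoters of many actin and other contractile genes.

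The promoters of 4 members are printed to show what the sequence before each gene holds in the way of such motifs. Of these, Tpm1, Tnnc1 and Tnni1 were called in TKO against Ctrl below, and Tnnt2 was not called in any comparison. Tnnt1, also called in TKO against Ctrl, is not printed. Each stretch is the 250 bases before a RefSeq transcription start on GRCm38.p6, read 5′ to 3′ on the gene's own strand. The Tpm1 stretch is chr9:67049214-67049463 on the minus strand, the Tnnc1 stretch chr14:31208062-31208311 on the plus strand, the Tnni1 stretch chr1:135799171-135799420 on the plus strand and the Tnnt2 stretch chr1:135836084-135836333 on the plus strand. Capitals mark matches on either strand to a CArG box with 1 letter off (CC, then 6 letters of A or T, then GG), to the MCAT element CATTCC, to the GATA element AGATAA or to the TATA box TATAAA.
Tpm1: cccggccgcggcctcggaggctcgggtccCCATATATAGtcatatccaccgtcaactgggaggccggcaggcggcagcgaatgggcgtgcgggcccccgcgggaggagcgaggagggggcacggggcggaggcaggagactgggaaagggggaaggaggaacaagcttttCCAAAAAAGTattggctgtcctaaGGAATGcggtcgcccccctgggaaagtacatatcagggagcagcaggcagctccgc
Tnnc1: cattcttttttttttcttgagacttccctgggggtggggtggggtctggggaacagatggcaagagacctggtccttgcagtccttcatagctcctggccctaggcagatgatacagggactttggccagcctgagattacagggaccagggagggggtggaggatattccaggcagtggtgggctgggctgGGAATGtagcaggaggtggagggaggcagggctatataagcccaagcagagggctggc
Tnni1: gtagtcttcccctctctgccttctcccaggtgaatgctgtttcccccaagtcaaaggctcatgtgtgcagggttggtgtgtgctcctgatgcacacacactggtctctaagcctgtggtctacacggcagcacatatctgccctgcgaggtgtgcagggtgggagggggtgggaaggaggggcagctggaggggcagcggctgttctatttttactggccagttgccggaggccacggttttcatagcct
Tnnt2: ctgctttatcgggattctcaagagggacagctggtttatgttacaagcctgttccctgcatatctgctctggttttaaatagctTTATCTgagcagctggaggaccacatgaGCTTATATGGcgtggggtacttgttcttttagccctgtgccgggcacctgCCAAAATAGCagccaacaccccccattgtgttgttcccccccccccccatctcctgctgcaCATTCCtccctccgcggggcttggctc
No member had a full CArG box in these windows, which 1.47% of the 32851 windows of the same length held. The Tpm1 stretch held 2 CArG boxes with 1 letter off, CCATATATAG at -221 and CCAAAAAAGT at -80 from the start, and an MCAT match at -56. The Tnnt2 stretch also held 2, GCTTATATGG at -138 and CCAAAATAGC at -88, with an MCAT match at -27 and a GATA match at -166. The Tnnc1 stretch held an MCAT match at -58, and the Tnni1 stretch held none of these motifs. Among members not printed, Tnnt1 had a TATA match at -30. Tpm3, not called, had CArG boxes with 1 letter off at -162, -66 and -57 and a GATA match at -32. A CArG box with 1 letter off stood in 17.5% of all windows an MCAT match in 12.6%, a GATA match in 9.99% and a TATA match in 12.4%, and a match describes the letters only.

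The libraries held between 5.83 M and 17.18 M counts. Levels are given in CPM, counts scaled to 1000000 per library. Mrtfa (Mkl1 in the count table) had between 1.33 and 2.66 CPM in TKO and between 1.40 and 2.77 CPM in DKO libraries, against 6.39 to 11.9 CPM in MKO and 4.81 to 11.3 CPM in Ctrl libraries. Whole-gene counts of floxed Mrtfb, counted as Mkl2, were lower in all 12 TKO and DKO libraries than in the lowest Ctrl library. Myocd had between 175 and 323 CPM in TKO, 175 and 242 CPM in DKO and 120 and 187 CPM in MKO against 153 to 234 CPM in Ctrl libraries. By edgeR, Myocd rose in TKO against Ctrl (log2 change 0.40, adjusted p = 0.0437) and was not called in TKO against DKO (0.23, adjusted p = 0.298). Guide edits need not lower counts, so these values do not check editing. Library 3 of Ctrl had the lowest sum of endothelial markers of all 24. Library 1 of DKO stood far from its group, with a chi-square per gene of 94.4 to 112 against the other DKO libraries, where pairs of those differed by 7.17 to 18.8. The authors' deposited fold changes for the 9 genes differed by at most 0.00608 on the log2 scale from a refit without those 2 libraries, against up to 0.295 from a refit with all 24. All 24 are used below.

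A group of 4 members dominated. Per kilobase of gene model, Tnnt2 averaged 9999 CPM in TKO and 10844 CPM in Ctrl libraries, Tnni3 6150 and 7652 CPM, Tpm1 3521 and 5781 CPM and Tnnc1 1945 and 3638 CPM. By their Ctrl levels they ranked 3rd, 5th, 9th and 12th of the 12281 genes tested. No Ctrl library of one of these 4 genes overlapped the libraries of the next. The others lay far below, in the order Tnni1, Tnnt1, Tpm4, Tpm3 and Tpm2, with per-kilobase means of 189, 28.6, 16.4, 5.91 and 3.62 CPM in TKO and 46.2, 43.9, 20.5, 5.49 and 4.60 CPM in Ctrl libraries. Tnni1 stood clear of Tnnt1 in TKO, with no overlap, while in Ctrl neighbours among these 5 overlapped: Tnni1 was above Tnnt1 in 4 of the 6 libraries, Tnnt1 above Tpm4 in 5 and Tpm3 above Tpm2 in 4. The order of the 9 means was the same in all 4 groups. Together the 9 genes took 3.14 ± 0.253% of all counts in TKO, 3.62 ± 0.493% in DKO, 3.51 ± 0.155% in MKO and 3.90 ± 0.281% in Ctrl libraries (SD, n = 6 each).

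**Figure D1:**
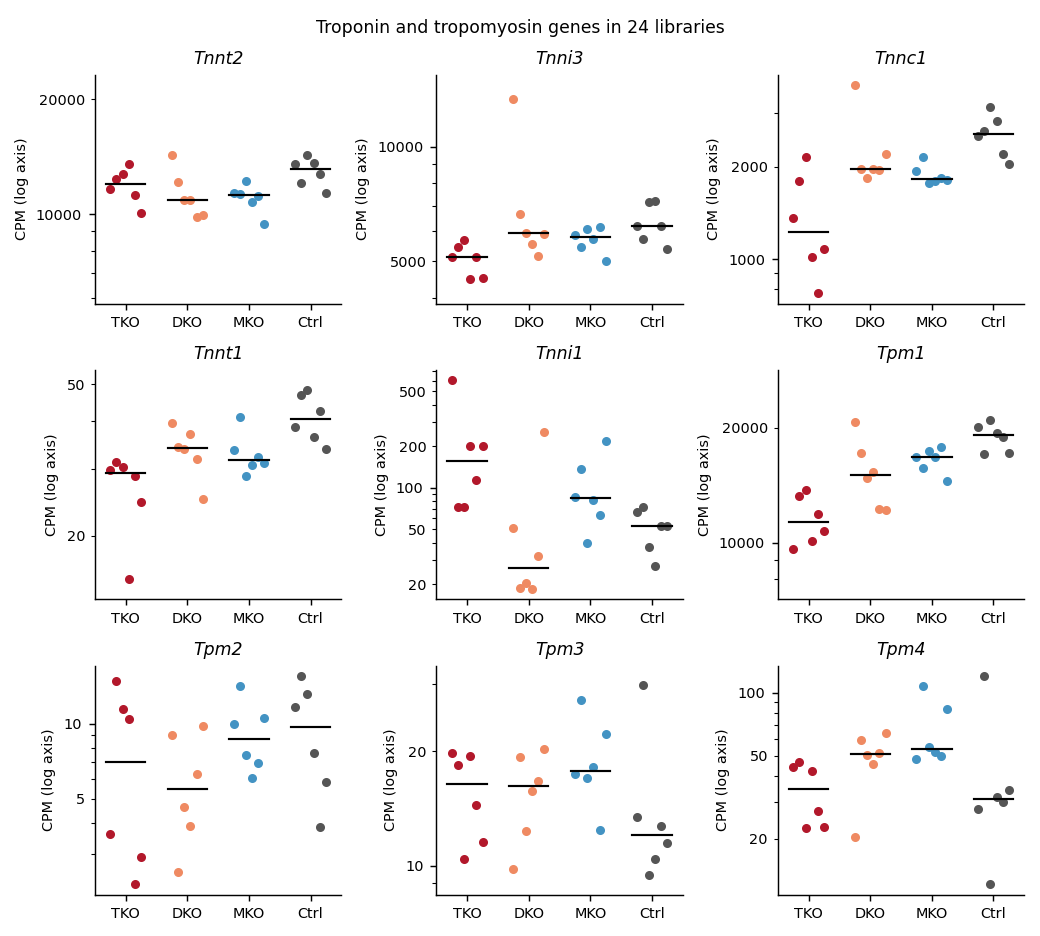
Each panel shows 1 of the 9 genes in CPM on a log axis, with 1 point for each of the 6 libraries of TKO, DKO, MKO and Ctrl and a line at the group's median. Tnni1 lies above every Ctrl library in all 6 TKO libraries, Tpm1 and Tnnt1 lie below every Ctrl library in TKO, and single libraries stand out for Tnni1 (TKO 1 and DKO 6), Tnni3 and Tnnc1 (DKO 1) and Tpm3 and Tpm4 (Ctrl 2).

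In TKO against Ctrl libraries, which set mice with all 3 coactivator genes targeted against controls, Tpm1, Tnnc1 and Tnnt1 fell and Tnni1 rose, while the other 5 did not pass the test. These 4 of 9 called genes stand beside 14.1% of all genes tested in this comparison, with 1 higher beside 8.14% and 3 lower beside 5.98%. The median log2 change of the 9 was -0.32, against -0.01 over all genes tested. For 3 of the 9 (Tnni1, Tnnt1 and Tpm1) the 6 TKO and 6 Ctrl libraries did not overlap, as for 8.15% of all genes. These are bulk libraries of sorted cells, so fewer cells of a type and less RNA per cell cannot be told apart.

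Cardiac troponin T, the anchor of the complex, did not pass the test in any comparison. Tnnt2 (chromosome 1, 135836386 to 135852261, plus strand) lay between 10041 and 13506 CPM in TKO (median 12003), 9836 and 14285 in DKO (median 10902), 9434 and 12227 in MKO (median 11236) and 11359 and 14329 CPM in Ctrl libraries (median 13120). The groups overlapped throughout. Its log2 change was -0.12 ± 0.10 (SE) in TKO against Ctrl libraries with an adjusted p of 0.509, -0.19 ± 0.10 in DKO and -0.23 ± 0.10 in MKO against Ctrl, with adjusted p of 0.547 and 0.772. Here and below, adjusted p-values for genes are from edgeR's quasi-likelihood test with Benjamini-Hochberg adjustment over all genes tested.

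Cardiac troponin I, the inhibitory subunit of the adult heart, was lower in TKO but missed the threshold. Tnni3 (chromosome 7, 4518308 to 4522443, minus strand) lay between 4496 and 5690 CPM in TKO (median 5129), 5171 and 13296 in DKO (median 5920), 4995 and 6141 in MKO (median 5788) and 5383 and 7187 CPM in Ctrl libraries (median 6189). All 6 TKO libraries were below the Ctrl mean, though the groups overlapped, and DKO 1 stood far above the other DKO libraries. The log2 change in TKO against Ctrl was -0.32 ± 0.17 (adjusted p = 0.230). It passed without DKO 1, a library of neither group (-0.32, adjusted p = 0.00936), and without both DKO 1 and Ctrl 3 (-0.28, adjusted p = 0.0272). It also passed with every library of both groups by voom (-0.28, adjusted p = 0.0300) and in a fit of those 2 groups alone (-0.32, adjusted p = 0.0344).

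Troponin C, the calcium sensor shared by slow muscle and heart, fell in TKO. Tnnc1 (chromosome 14, 31208312 to 31211711, plus strand) had 1365, 1802, 2159, 1017, 776 and 1084 CPM in TKO libraries 1 to 6. DKO libraries lay between 1841 and 3697 CPM (median 1966), MKO libraries between 1777 and 2154 CPM (median 1829), and Ctrl libraries had 2517, 2610, 3137, 2831, 2204 and 2047 CPM. The TKO libraries were below the Ctrl mean in every case, and the highest TKO library overlapped the lowest Ctrl library. The log2 change in TKO against Ctrl was -0.90 ± 0.20 (adjusted p = 0.00262), a mean of 1367 ± 523 against 2558 ± 400 CPM (SD, n = 6 each). Against Ctrl it was -0.17 ± 0.20 in DKO (adjusted p = 0.809), or -0.37 without DKO 1 (adjusted p = 0.395), and -0.44 ± 0.20 in MKO (adjusted p = 0.772). Of the 8 cardiomyocyte markers, Myl3, Myh6 and Atp2a2 also fell in TKO against Ctrl, with log2 changes of -0.76, -0.63 and -0.52. No other marker of this list was called. Of those, Actn2 (mean 7048 against 6406 CPM), Mb (9501 against 8956) and Pln (5349 against 5205) averaged higher in TKO, and Myl2 and Ryr2 lower. Summed over the 8, the markers lay between 89258 and 112846 CPM in TKO and between 115956 and 154591 CPM in Ctrl libraries, with none at or near 0. Myh6 was the largest part of this sum, with a mean of 52152 CPM in TKO and 80693 CPM in Ctrl libraries. The part of these markers' changes in the troponin values was not tested.

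Slow skeletal troponin I, the fetal cardiac form, rose in TKO with a wide spread between libraries. Tnni1 (chromosome 1, 135799421 to 135810989, plus strand) had 600.5, 73.1, 73.2, 201.7, 115.0 and 200.1 CPM in TKO libraries 1 to 6. In DKO the values were 51.1, 18.8, 20.6, 18.5, 32.2 and 255.7 CPM, with 1 library far above the other 5. MKO libraries had 86.0, 136.5, 39.5, 81.7, 63.3 and 218.2 CPM, against 66.4, 72.2, 37.2, 27.3, 53.1 and 52.8 CPM in Ctrl libraries. The lowest TKO library was just above the highest Ctrl library, 4 of 6 MKO libraries were above it, and 5 of 6 DKO libraries lay within or under the Ctrl range. The log2 change in TKO against Ctrl was 2.03 ± 0.62 (adjusted p = 0.0279). The call was lost when TKO 1 was left out (1.37, adjusted p = 0.132), and also without Ctrl 3, Ctrl 4 or Ctrl 5, with log2 changes of 1.96, 1.91 and 2.05 and adjusted p of 0.0557, 0.0628 and 0.0507. Against Ctrl, Tnni1 had a log2 change of 1.02 ± 0.61 in MKO (adjusted p = 0.786) and 0.37 ± 0.60 in DKO (adjusted p = 0.882). The DKO value turned to -0.89 without DKO 6.

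The fetal share of the troponin I pair was taken within each library. Per length, Tnni1 made up 7.95, 0.986, 0.944, 3.21, 1.64 and 3.17% of Tnni1 plus Tnni3 in TKO libraries 1 to 6. The share was between 0.210 and 0.460% in DKO libraries 1 to 5 and 3.11% in DKO 6, between 0.478 and 3.13% in MKO libraries (median 1.06%), and 0.789, 0.927, 0.383, 0.281, 0.630 and 0.722% in Ctrl libraries. Tnni3 was the main form in every library, and all 6 TKO libraries were above every Ctrl library. The log2 ratio of Tnni1 to Tnni3 counts was higher in TKO than in Ctrl by 1.99 ± 0.57 (SE), with the smallest two-sided p that an exact permutation test of 6 against 6 can give, 0.00216, and 0.0152 after adjustment over 42 ratio tests. Leaving out Ctrl 3, Ctrl 5 or Ctrl 6 took the adjusted exact p to 0.0505 each, with log2 differences of 1.88, 2.02 and 2.06. In TKO against DKO it was higher by 2.45 ± 0.79 (exact permutation p = 0.0108, adjusted p = 0.0455), a call lost in 9 of the 12 fits without 1 library of either group, where it ran from 2.06 to 3.03. In TKO against MKO it was higher by 0.98 ± 0.64 (adjusted exact p = 0.306), or 0.60 without TKO 1. The ratio was higher in MKO than in Ctrl by 1.01 ± 0.48 (exact permutation p = 0.0584, adjusted p = 0.160) and lower in DKO than in MKO by -1.47 ± 0.72 (exact permutation p = 0.0693, adjusted p = 0.162), which passed at -2.05 without DKO 6 (adjusted p = 0.0227).

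Slow skeletal troponin T fell in TKO, against the direction of slow skeletal troponin I. Tnnt1 (chromosome 7, 4504663 to 4515975, minus strand) had 29.8, 31.3, 30.3, 15.4, 28.7 and 24.6 CPM in TKO libraries 1 to 6. DKO libraries lay between 25.01 and 39.5 CPM (median 34.0), MKO libraries between 28.7 and 41.1 CPM (median 31.6), and Ctrl libraries had 38.6, 46.8, 48.3, 36.4, 42.4 and 33.8 CPM. No TKO library reached the lowest Ctrl library, while DKO and MKO libraries overlapped both. The log2 change in TKO against Ctrl was -0.62 ± 0.14 (adjusted p = 0.00374), and it was -0.29 ± 0.14 in DKO (adjusted p = 0.473) and -0.32 ± 0.14 in MKO (adjusted p = 0.772). Per length, Tnnt1 was between 0.146 and 0.326% of Tnnt1 plus Tnnt2 in TKO and between 0.341 and 0.493% in Ctrl libraries, again with no overlap. The log2 ratio of Tnnt1 to Tnnt2 counts was lower in TKO than in Ctrl by -0.53 ± 0.20 (exact permutation p = 0.00216, adjusted p = 0.0152), and by -0.34 without TKO 4 (adjusted exact p = 0.0303). It was lower in TKO than in DKO by -0.43 ± 0.20 (adjusted exact p = 0.0404) and than in MKO by -0.44 ± 0.21 (adjusted exact p = 0.0496). Without TKO 4, the lowest library, both of these were -0.25, and they were lost in 7 and 9 of the 12 fits without 1 library. Tnnt1 and Tnni3 lie side by side on chromosome 7, 2333 bases apart, and Tnni1 and Tnnt2 on chromosome 1, 25397 bases apart. In each neighbour pair, 1 gene passed the test in TKO against Ctrl and the other did not, and the difference between neighbours was not tested.

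**Figure D2:**
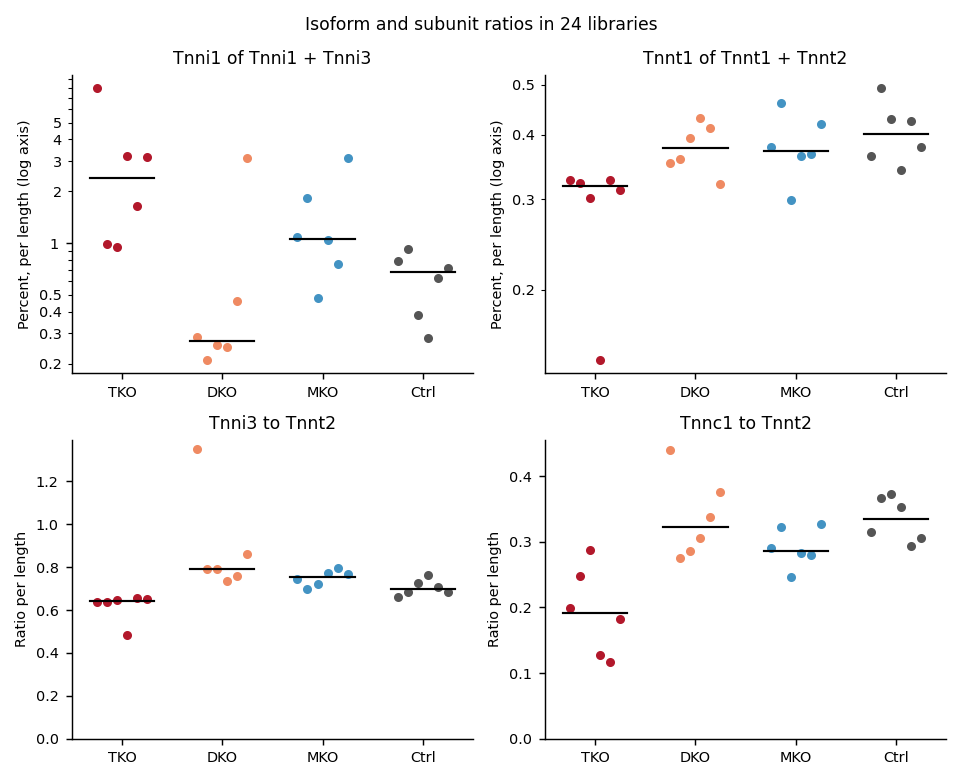
The panels show, for each of the 6 libraries of TKO, DKO, MKO and Ctrl, the per-length share of Tnni1 in troponin I and of Tnnt1 in troponin T in percent on log axes, and the per-length ratios of Tnni3 to Tnnt2 and of Tnnc1 to Tnnt2, with a line at each group's median. TKO libraries are above every Ctrl library for the troponin I share and below every Ctrl library in the other 3 panels, while DKO 6 is near the TKO libraries for the troponin I share and DKO 1 is highest for both subunit ratios.

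The 3 cardiac troponin subunits are built into the filament in equal number, and the ratios between their transcripts were compared within each library. Per length, the ratio of Tnni3 to Tnnt2 was 0.638, 0.637, 0.645, 0.482, 0.658 and 0.653 in TKO libraries 1 to 6, against 0.661, 0.685, 0.724, 0.764, 0.707 and 0.686 in Ctrl libraries. All TKO libraries were under every Ctrl library by a small margin. The log2 ratio of counts was lower in TKO by -0.19 ± 0.08 against Ctrl, by -0.48 ± 0.15 against DKO and by -0.28 ± 0.08 against MKO, with no overlap and an adjusted exact permutation p of 0.0152 in each. Without TKO 4, the lowest TKO library, the difference from Ctrl was -0.12 (adjusted exact p = 0.0303). It was higher in DKO than in Ctrl by 0.29 ± 0.14 (adjusted exact p = 0.0341). Without DKO 1, whose ratio was 1.35 against 0.736 to 0.859 in the other DKO libraries, that value was 0.16 (adjusted p = 0.0636), and the call was also lost without Ctrl 1, 2, 3, 5 or 6. The ratio of Tnnc1 to Tnnt2 per length averaged 0.194 ± 0.066 in TKO, 0.337 ± 0.062 in DKO, 0.292 ± 0.030 in MKO and 0.334 ± 0.033 in Ctrl libraries (SD, n = 6 each). All 6 TKO libraries, from 0.117 to 0.287, were below the lowest Ctrl library at 0.294. The log2 ratio of counts was lower in TKO by -0.86 ± 0.22 against Ctrl (adjusted exact p = 0.0152) and by -0.85 ± 0.23 against DKO (adjusted exact p = 0.0341), and by -0.66 ± 0.22 against MKO, which missed the threshold (adjusted exact p = 0.0530). Without Ctrl 3, the calls of the Tnni3 to Tnnt2 ratio (-0.18) and the Tnnc1 to Tnnt2 ratio (-0.83) in TKO against Ctrl were lost. The adjusted exact p was 0.0505 in each. Without Ctrl 3 and DKO 1 these adjusted p-values were 0.0682 and 0.0707. In TKO against DKO, the Tnnc1 to Tnnt2 call was lost without DKO 1, 2, 3, 4 or 5, with log2 differences of -0.91 to -0.77 and adjusted exact p of 0.0568 to 0.0636.

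Alpha-tropomyosin, the main tropomyosin of the mouse ventricle, fell in TKO. Tpm1 (chromosome 9, 67022593 to 67049213, minus strand), whose promoter is printed above, had 9595, 13217, 13781, 10064, 11888 and 10725 CPM in TKO libraries 1 to 6. DKO libraries had 20692, 17179, 14742, 15332, 12278 and 12149 CPM, MKO libraries lay between 14515 and 17789 CPM (median 16752), and Ctrl libraries had 20101, 17130, 20991, 19395, 18959 and 17149 CPM. The highest TKO library stayed well under the lowest Ctrl library, and the DKO libraries overlapped both groups. The log2 change in TKO against Ctrl was -0.72 ± 0.12 (adjusted p = 0.000243), and without each library in turn it ran from -0.78 to -0.67. It was -0.30 ± 0.12 in DKO (adjusted p = 0.387) and -0.20 ± 0.12 in MKO against Ctrl (adjusted p = 0.786). Tpm1 has 21 GENCODE transcripts, 16 of them protein coding, and the whole-gene counts sum its striated, smooth muscle and cytoskeletal isoforms. Summed over 14 genes, smooth muscle and pericyte markers were at 961 to 1119 CPM in TKO and 1725 to 2287 CPM in Ctrl libraries. Of the 12 tested, Acta2 alone fell and Cspg4 rose. Acta2 had the largest drop in this sum, with a mean of 114 CPM in TKO and 777 CPM in Ctrl libraries. Tagln (mean 2.34 against 1.84 CPM), Cnn1, Lmod1 and Cspg4 averaged higher in TKO, and the other markers of this list lower. The part of smooth muscle cells and pericytes in the Tpm1 values was not tested.

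The other tropomyosins were rare and none passed the test in TKO, DKO or MKO against Ctrl. Tpm2, beta-tropomyosin of slow skeletal and smooth muscle (chromosome 4, 43514712 to 43523388, minus strand), lay between 2.26 and 14.8 CPM in TKO (median 7.04), 2.53 and 9.86 in DKO (median 5.47), 6.09 and 14.3 in MKO (median 8.74) and 3.87 and 15.6 CPM in Ctrl libraries (median 9.69). With between 26 and 195 counts a library, its log2 change in TKO against Ctrl was -0.34 ± 0.41 (adjusted p = 0.654). Tpm3, the slow skeletal and cytoskeletal form (chromosome 3, 90072651 to 90100902, plus strand), lay between 10.4 and 19.8 CPM in TKO, 9.79 and 20.3 in DKO, 12.4 and 27.3 in MKO and 9.45 and 29.8 CPM in Ctrl libraries. The groups overlapped for both genes, and the log2 change of Tpm3 in TKO against Ctrl was 0.11 ± 0.25 (adjusted p = 0.825). Without Ctrl 2, its highest library, that was 0.44 (adjusted p = 0.170), and without Ctrl 3 it was 0.01.

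Tpm4, a cytoskeletal tropomyosin of non-muscle cells (chromosome 8, 72135292 to 72153129, plus strand), had 44.1, 46.8, 22.4, 42.1, 27.0 and 22.8 CPM in TKO libraries 1 to 6. DKO libraries lay between 20.4 and 64.4 CPM, and MKO libraries had 48.4, 108, 55.3, 52.3, 49.9 and 83.5 CPM, all above the highest TKO library. Ctrl libraries had 27.8, 121, 12.1, 31.7, 30.0 and 34.1 CPM, with Ctrl 2 far above and Ctrl 3 below the rest. The log2 change was -0.32 ± 0.37 in TKO against Ctrl (adjusted p = 0.633) and turned to 0.33 without Ctrl 2 (adjusted p = 0.522). In TKO against MKO it was -0.95 ± 0.37 (adjusted p = 0.0907), which passed at the same size without Ctrl 2 (adjusted p = 0.0175), a library of neither group, and at -0.94 without Ctrl 3 and DKO 1 (adjusted p = 0.0301). Levels of Tpm4 ran with those of endothelial markers, the cells that line the vessels of the heart. The summed CPM of 14 such markers was between 226 and 862 in TKO, 365 and 1217 in DKO, 913 and 1988 in MKO and 221 and 2354 in Ctrl libraries, with Ctrl 2 highest and Ctrl 3 lowest. In TKO against MKO, 6 of the 14 fell, among them Pecam1 (-1.41) and Cdh5 (-1.49), while none of the 14 was called in TKO against Ctrl or DKO. The summed CPM of 12 fibroblast markers was between 459 and 766 in TKO, 296 and 845 in DKO, 524 and 1270 in MKO and 234 and 835 in Ctrl libraries. Fbln1 was the largest part of the TKO sum, with a mean of 234 CPM against 63.0 CPM in Ctrl libraries. Of the 11 tested, Fbln1 (1.89) and Gsn (0.48) rose in TKO against Ctrl, with a median of -0.17. In TKO against MKO, Fbln1 (1.55) rose and Postn (-1.45) and Pdgfra (-1.27) fell, with a median of -0.89. Over the 24 libraries, the genes whose log2 CPM was most like that of Tpm4 were Vim (Pearson r = 0.969), Tmod3 (0.963) and Rapgef3 (0.961), and between members Tpm3 and Tpm4 correlated at 0.883. The part of endothelial cells and fibroblasts in the Tpm3 and Tpm4 values was not tested.

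**Figure D3:**
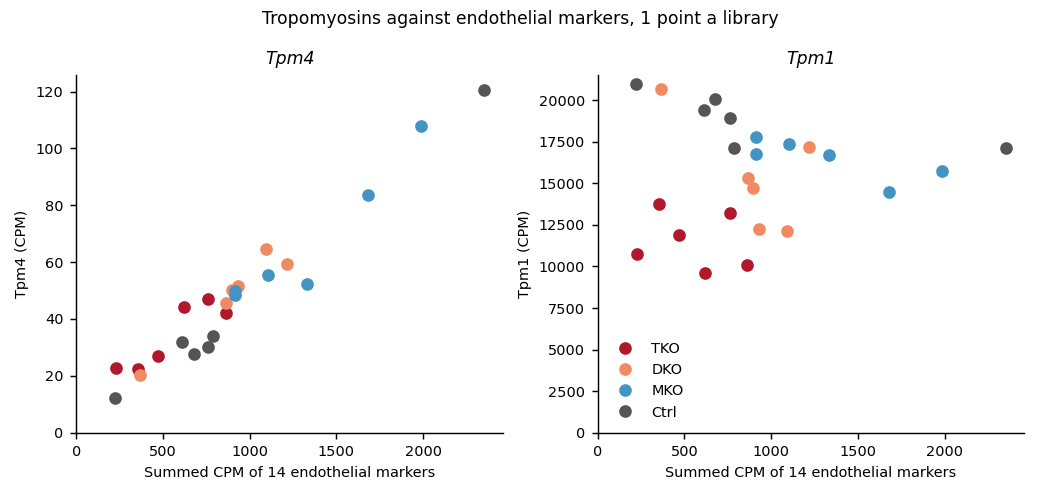
Tpm4 and Tpm1 in CPM are plotted against the summed CPM of 14 endothelial markers, with 1 point a library and colours for TKO, DKO, MKO and Ctrl. Tpm4 climbs with the marker sum, up to Ctrl 2 at 2354 for the markers and 121 for Tpm4, while the TKO libraries lie under the Ctrl libraries for Tpm1 at any marker sum.

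The minor tropomyosins were also set against Tpm1 within each library. Per length, Tpm4 made up between 0.256 and 0.720% of Tpm4 plus Tpm1 in TKO, 0.156 and 0.829% in DKO, 0.440 and 1.07% in MKO and 0.0909 and 1.10% in Ctrl libraries, with overlap of all groups. No ratio of Tpm2, Tpm3 or Tpm4 to Tpm1 passed the adjusted exact permutation test. The nearest, Tpm3 to Tpm1 in TKO against Ctrl, was higher by 0.90 ± 0.35 on the log2 scale (exact permutation p = 0.0346, adjusted p = 0.112). Without Ctrl 2, this ratio passed in TKO (1.16, adjusted exact p = 0.0303) and MKO against Ctrl (0.93, adjusted exact p = 0.0303), as did the ratio of Tpm4 to Tpm1 in TKO (1.10, adjusted exact p = 0.0390) and MKO (1.53, adjusted exact p = 0.0303).

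In DKO against Ctrl libraries, the loss of both Mrtf genes, 0 of the 9 members were called, where 0.635% of all genes tested were. The fold changes above ranged from -0.69 ± 0.43 for Tpm2 to 0.37 ± 0.60 for Tnni1 on the log2 scale, with a median of -0.17 against 0.02 over all genes. At an unadjusted p under 0.05 edgeR gave 1285 genes, and the authors' deposited table called Tpm1 (log2 change -0.39, adjusted p = 0.0278). In MKO against Ctrl, the Myocd guide in mice with intact Mrtf genes, edgeR called 0% of all genes and no member, with 762 genes at an unadjusted p under 0.05. DESeq2 called 1 gene and limma-voom 3. The authors' deposited table called 15 genes, among them Tnnc1 (log2 change -0.39, adjusted p = 0.0254). The members ranged from -0.44 ± 0.20 for Tnnc1 to 1.02 ± 0.61 for Tnni1, with a median of -0.14. TKO, DKO and MKO were set against the same 6 Ctrl libraries, so these 3 comparisons are not independent of each other.

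**Figure D4:**
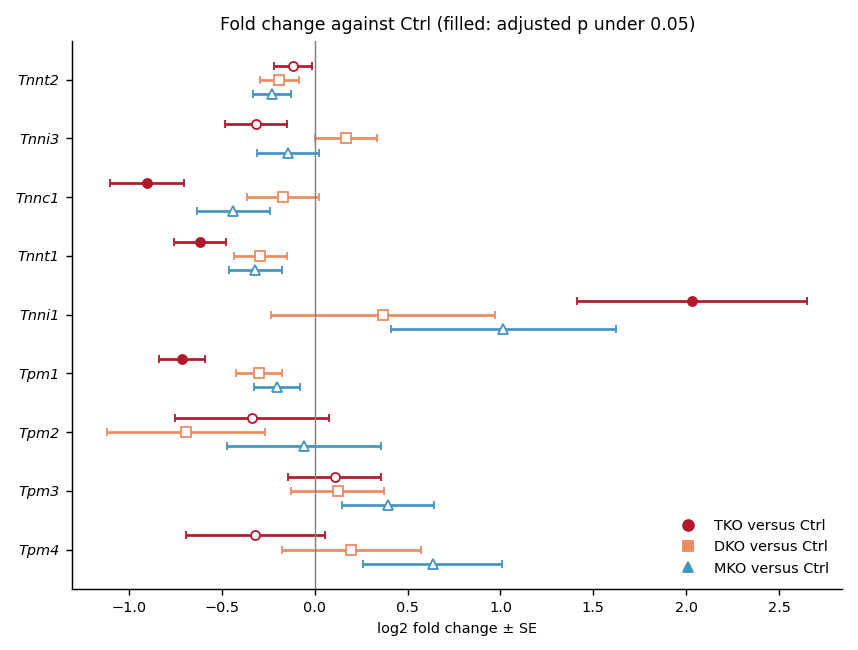
Log2 fold changes of the 9 genes with their standard errors are shown for TKO, DKO and MKO against the shared 6 Ctrl libraries, and filled points mark an adjusted p under 0.05. The 4 filled points are all TKO: Tnni1 at 2.03, Tnnt1 at -0.62, Tpm1 at -0.72 and Tnnc1 at -0.90.

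In TKO against DKO libraries, which share the Mrtf genotype and differ in the virus, Tnnc1 and Tpm1 fell. These 2 of 9, both lower, stand beside 6.38% of all genes called and 2.22% called lower, and the groups overlapped for all 9 members, where 3.53% of all genes were without overlap. Tnnc1 had a log2 change of -0.73 ± 0.20 (adjusted p = 0.0254), a mean of 1367 ± 523 CPM in TKO and 2272 ± 708 CPM in DKO libraries (SD, n = 6 each). Without DKO 1 it was -0.53 (adjusted p = 0.0545), and the call was also lost without TKO 4, 5 or 6. Tpm1 had a log2 change of -0.42 ± 0.12 (adjusted p = 0.0436), and that call was lost in 18 of the 24 fits that left out 1 library, where it ran from -0.48 to -0.31. Without Ctrl 3 and DKO 1 it was -0.30 (adjusted p = 0.0706). Tnni1 was at 1.67 ± 0.61 (adjusted p = 0.103). Without DKO 6, it passed at 2.93 (adjusted p = 0.00140), and without TKO 1 it was 0.998 (adjusted p = 0.305). Tnni3 was at -0.48 ± 0.17 (adjusted p = 0.0829). It passed at -0.56 without DKO 5 (adjusted p = 0.0471), and was -0.20 without DKO 1 (adjusted p = 0.173). DKO 1, the highest library for both Tnni3 and Tnnc1, had the highest Myl3 (15200 CPM), Mb (20300 CPM), Myl2 (7120 CPM) and Pln (7210 CPM) of the DKO libraries and the lowest Myh6 (23200 CPM) and Atp2a2 (11700 CPM). Its sum of the 8 cardiomyocyte markers was the lowest of the DKO libraries, at 91712 CPM, and the part of this in the troponin values was not tested.

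In TKO against MKO libraries, which share the guide virus and differ in the Mrtf genotype, Tpm1 fell and no other member was called, where 13.3% of all genes were called and 6.86% called lower. Its log2 change was -0.51 ± 0.12 (adjusted p = 0.00743), with no overlap between 9595 to 13781 CPM in TKO and 14515 to 17789 CPM in MKO libraries. The call held without any single library, from -0.56 to -0.47. Of 12 smooth muscle and pericyte markers, 8 fell and 1 rose in TKO against MKO, with a median of -1.29. Acta2 (-2.24), Pdgfrb (-1.71), Vtn (-1.64) and Notch3 (-1.42) were among those that fell, and their part in the Tpm1 and Tpm4 values was not tested. Tpm4 was the other member without overlap, as were 9.71% of all genes. Tnnc1 had a log2 change of -0.46 ± 0.20 (adjusted p = 0.119), Tnni1 1.02 ± 0.60 (adjusted p = 0.279) and Tnnt1 -0.30 ± 0.14 (adjusted p = 0.163). Tnni1 was at 0.35 without TKO 1 (adjusted p = 0.767). Without Ctrl 3 and DKO 1, Tnnc1 passed at -0.45 (adjusted p = 0.0485). In DKO against MKO libraries no member was called, where 0.79% of all genes were.

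Whether the TKO change departed from the sum of the DKO and MKO changes on the log2 scale was tested as an interaction over all 4 groups. No member was called, where 0.464% of all genes were and 1520 genes had an unadjusted p under 0.05. The terms nearest the threshold were -1.15 ± 0.53 for Tpm4 (adjusted p = 0.366) and 0.30 ± 0.15 for Tnnt2 (adjusted p = 0.402), and the term of Tnni1 was 0.65 ± 0.85 (adjusted p = 0.813). Without Ctrl 2, the Tpm4 term passed at -1.80 (adjusted p = 0.0134).

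The fast skeletal paralogs were close to absent. Tnnt3 and Tnnc2, the fast troponins T and C, had between 0 and 4 counts a library and were not tested. Tnni2, fast troponin I, had between 7 and 71 counts, and its log2 change was 0.45 ± 0.38 in TKO against Ctrl (adjusted p = 0.492) and 1.33 ± 0.39 in DKO against MKO (adjusted p = 0.116). Of other skeletal muscle markers, Mybpc2 rose in TKO against Ctrl (1.39, adjusted p = 9.91e-05), while Mylpf stayed between 0.0931 and 1.60 CPM over all libraries. Atrial markers bear on Tnni1, since they tell ventricular and atrial cells apart. Nppa, which is also a stress gene of the ventricle, rose in TKO against Ctrl (2.92, adjusted p = 0.0118), while atrial Myl7 lay between 0.0871 and 9.77 CPM in TKO and between 1.33 and 57.1 CPM in Ctrl libraries. Among conduction system markers, Cntn2 (1.93) and Hcn4 (1.26) rose and Smoc2 (-1.18) fell in TKO against Ctrl, and the part of these cells in the Tnni1 values was not tested.

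The partners of troponin and tropomyosin on the thin filament moved in both directions. Of 23 tested genes for actins and for filament length and assembly, 4 rose and 5 fell in TKO against Ctrl, with a median of 0.07 against -0.01 over all genes. Beside this list and those below, 8.14% of all genes were called higher and 5.98% lower in TKO against Ctrl. The share called was 6.38% in TKO against DKO, 13.3% in TKO against MKO and 0.635% in DKO against Ctrl. Smooth muscle actin Acta2 (-2.76), cardiac actin Actc1 (-1.17) and the actin-severing cofactor Wdr1 (-0.61) fell, and the actin anchor Nrap rose (0.52, adjusted p = 0.00230). Actin genes are near-identical in their coding sequence, so reads may be shared between them. In DKO against Ctrl, 3 of the 23 fell, Acta2 (-2.17), Wdr1 (-0.64) and skeletal actin Acta1 (-2.20), and in MKO against Ctrl none was called. In TKO against DKO 5 rose and 1 fell, in TKO against MKO 3 rose and 3 fell, and in DKO against MKO Acta2 (-1.64) and Wdr1 (-0.61) fell. Acta1 was the only gene of the list with an interaction call (3.23, adjusted p = 0.0346). Of the kinases, phosphatases, proteases and ligases that act on troponin or its partners, 5 of 23 rose and 2 fell in TKO against Ctrl, with a median of 0.09. Fbxo32, a muscle ubiquitin ligase, rose by 1.13 (adjusted p = 4.73e-05), Prkcd, a protein kinase C, by 1.44, the small heat shock protein Hspb7 by 0.86 and the protein kinase Rock2 by 0.53. In DKO against Ctrl, Fbxo32 rose (0.74, adjusted p = 0.0365). Prkar1a (0.56), Prkcd (1.02) and Rock2 (0.48) rose and Ppp1r1a (-0.79) fell in TKO against DKO, and Fbxo32 (1.05), Prkcd (1.06), Hspb7 (0.73) and Rock2 (0.48) rose in TKO against MKO.

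Of 17 tested splicing factors of cardiac sarcomere transcripts, which matter for Tnnt2 and Tpm1 because both are spliced into many forms, Rbfox1 fell and Srsf10 rose in TKO against Ctrl. Calls in this list were no more frequent than the 14.1% of all genes called in that comparison. Rbfox1 averaged 15.5 ± 3.11 CPM in TKO and 30.0 ± 4.13 CPM in Ctrl libraries (SD, n = 6 each), a log2 change of -0.95 ± 0.16 (adjusted p = 0.000156). It fell also in TKO against DKO (-0.78) and MKO (-0.88), and Srsf10 had a log2 change of 0.24 against Ctrl (adjusted p = 0.0217). Rbfox2 rose in TKO against DKO (0.36) and Celf2 in TKO against MKO (0.21). Gene counts do not resolve the splice forms themselves. Of 18 tested transcription factors of troponin and tropomyosin genes, 2 rose and 3 fell in TKO against Ctrl: Gata4 (0.35, adjusted p = 0.00754) and Myocd (0.40, adjusted p = 0.0437) rose, and Srf (-0.93), Mkl1 (-1.86) and Mkl2 (-0.46) fell. Mkl1, null in the TKO and DKO genotype, and Mkl2, floxed in it, fell in DKO against Ctrl and against MKO. Both also fell in TKO against MKO, where Srf (-1.03) fell too and Myocd (0.77) rose. In TKO against DKO, Tbx20 rose (0.89) and Srf fell (-0.61).

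The genes whose log2 CPM over the 24 libraries was most like that of each member differed between the members. Tnni3 was nearest to Etfb (Pearson r = 0.975), Ndufs3 (0.971) and Cisd1 (0.961), and Tnnc1 to Myl3 (0.922), Spryd4 (0.922) and Timm44 (0.901). Tpm1 was nearest to Adk (0.951), Rxrg (0.950) and Fahd1 (0.944), and Tnnt1 to Csrp2 (0.852), Igsf9b (0.841) and Nudt13 (0.837). Tnni1 was nearest to Nipsnap3b (0.841), Tox (0.798) and Snx1 (0.793), and genes near Tnnt2 included Cryab (0.758) and Hspb1 (0.750). Tpm3 was nearest to Id3 (0.931), Coro1c (0.917) and Fam176b (0.903), and Tpm2 to Doc2g (0.836), Gnb3 (0.730) and Myl6 (0.714). Between members, Tnnc1 and Tpm1 correlated at 0.775, Tnnt1 and Tpm1 at 0.748, Tnni3 and Tnnc1 at 0.722, and Tnni1 and Tnni3 at -0.41. These correlations are descriptions over libraries that share the 4 groups, their depth and any other cells present.

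In the authors' deposited tables for TKO against Ctrl, all 4 genes called here passed and Tnni3 with them, with log2 changes of -0.70 for Tpm1, -0.85 for Tnnc1, -0.58 for Tnnt1, 1.95 for Tnni1 and -0.29 for Tnni3. In the authors' deposited table for TKO against DKO, Tpm4 passed (-0.66, adjusted p = 0.0153), while Tnnc1 (-0.54, adjusted p = 0.0710) and Tpm1 (-0.31, adjusted p = 0.0849) did not. In the authors' deposited table for TKO against MKO, Tpm1 (-0.51) and Tpm4 (-0.95, adjusted p = 0.000955) passed. The kits used do not keep strand, and the treatment of multi-mapping reads is not given in the sources used, so counts of overlapping genes and of similar family members carry that uncertainty.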

How the data were processed

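Gene counts for 24 libraries were the deposited whole-number counts per gene. The submitters' processing notes name STAR, featureCounts, DESeq2 and mm10 without versions, and the labels name polyA RNA, SMART-Seq v4 amplification and Nextera XT libraries, a method without strand. The authors also deposited 6 comparison tables with a normalised mean signal, log2 fold changes, a Wald score and p-values, used here only where named. A refit with DESeq2 1.42.0 showed by its values which 22 libraries those tables rest on.

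Tests on the counts used R 4.3.3 and edgeR 4.0.16 (quasi-likelihood test, TMM, 1 fit over all 24 libraries, filterByExpr with a minimum count of 10, Benjamini-Hochberg over all 12281 genes, called at an adjusted p under 0.05) in 6 pairwise comparisons and 1 interaction, 7 in all. CPM use the TMM library sizes, and levels per kilobase divide them by the length of the gene model. Isoform and subunit ratios are log2 of counts plus 0.5, compared by exact two-sided permutation tests adjusted over 42 tests. Python 3.11.15, numpy 2.4.6, pandas 2.3.3 and matplotlib 3.10.9 were used for ratios and figures, and promoters come from RefSeq. The tests were checked on simulated data. In TKO against Ctrl, edgeR then recovered 45.5% of 1.5-fold and 73% of 2-fold changes, with 5.6% false among the calls. A gene that did not pass may therefore still have changed. The 60 pairs of libraries within groups differed by far more than counting noise.

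Replicate numbers are shared between the groups but did not pair the libraries, so no replicate block was used. Genes outside the 9 are named by a rule: in each list, the 4 with the smallest adjusted p in TKO against Ctrl, every called gene where 5 or fewer were called, the 3 genes most like a member (1 of those for Tnnt2 is not reported here) and markers of other cell types. The members and lists were chosen with earlier results of these data known. Alternatives were RLE size factors, no filter, DESeq2, limma 3.58.1 voom with quality weights, a replicate block, only the 2 groups compared, 22 libraries, a count offset of 1, group medians for the ratios, and leaving out each library. Depth ran from 5.83 M to 17.18 M counts per library, and the lowest counts in a library were 26 for Tpm2 and 49 for Tpm3. Precision varied, with standard errors of the log2 change in TKO against Ctrl of 0.62 for Tnni1, 0.41 for Tpm2 and 0.37 for Tpm4.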

Additional observations from a re-analysis of the deposited data

Results flagged for a closer look

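In 64 sets of 6 libraries (members and ratios in each group), 12 held a library whose gap to the nearest other was above Dixon's critical share of the whole range, where chance gives about 1 in 20.

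TKO 1 stood above the other TKO libraries for Tnni1, at 600.5 CPM. TKO 4 stood below the other TKO libraries for the log2 count ratios of Tnnt1 to Tnnt2 (-9.77) and of Tnni3 to Tnnt2 (-1.59). DKO 6 stood above the other DKO libraries for Tnni1, at 255.7 CPM, and for the log2 ratio of Tnni1 to Tnni3 (-4.53).

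DKO 1 stood above the other DKO libraries for Tnni3 (13296 CPM), for Tnnc1 (3697 CPM) and for the log2 ratio of Tnni3 to Tnnt2 (-0.10), and below them for the log2 ratio of Tpm4 to Tpm1 (-9.98). Ctrl 2 stood above the other Ctrl libraries for Tpm3 (29.8 CPM), Tpm4 (120.6 CPM) and the log2 ratio of Tpm3 to Tpm1 (-9.16), and it also had the highest sum of endothelial markers. The part of endothelial cells in these values was not tested.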

How the results depend on the processing

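In TKO against Ctrl, the direction and call of Tnnt1, Tnnt2, Tnnc1, Tpm1, Tpm2 and Tpm3 held under all 31 alternatives, 24 of which left out 1 library. Where a result moved, the cause was not tested unless said. Replicate numbers did not pair the libraries. Correlations of same-numbered libraries ran from -0.218 to 0.642, and 14 of 36 such pairs were over 0.1. In 4 of the 36 pairs, a library correlated best with the library of its own number in the other group. With the replicate block, the number of genes called in TKO against Ctrl was 1792 against 1734, Tnni1 passed in TKO against DKO (2.05, adjusted p = 0.0141), and the members called in TKO against MKO were 2 rather than 1. All 11 ratio calls were lost with the block, at adjusted p of 0.131 to 0.146. For the ratios the block pairs libraries by number, and a sign-flip test of 6 pairs gives no p under 0.03125 before adjustment. A p at that floor passes the adjustment only if most of the ratio tests reach it. The loss of these calls with the block therefore cannot show whether the ratios depend on it.

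The members called in TKO against DKO were 1 with no filter and 0 with only the 2 groups or with 22 libraries. In TKO against MKO they were 3 by voom, 2 with only the 2 groups and 3 with 22 libraries. Voom called 1 in DKO against Ctrl, 1 in DKO against MKO and 1 in the interaction. Without single libraries, the members called were 3 to 5 in TKO against Ctrl, 0 to 3 in TKO against DKO, 1 to 2 in TKO against MKO and 0 to 1 in the interaction.

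All 11 ratio calls were also lost by group medians, at adjusted p of 0.0682 or more (Tnni3 to Tnnt2 in TKO against Ctrl was then -0.12, Tnnt1 to Tnnt2 -0.34 and Tnnc1 to Tnnt2 -0.81), and 8 of the 11 with 22 libraries. Even where 2 groups do not overlap, some regroupings of the libraries leave both medians unchanged, so the smallest possible p is larger than with means. A p at that floor passes the adjustment only if more of the ratio tests reach it than did here. A loss by medians at an adjusted p of 0.0682 therefore cannot show whether the call depends on the use of means. The Tnni1 to Tnni3 ratio in TKO against Ctrl was 1.78 by group medians (adjusted p = 0.0682), 1.99 with the replicate block (0.131) and 1.88 with 22 libraries (0.0707), and 1.61 to 2.25 without single libraries. In TKO against DKO it was 3.11 by medians (0.159), 2.45 with the block (0.131) and 2.33 with 22 libraries (0.114), and 2.06 to 3.03 without single libraries. Without single libraries it ran from 0.72 to 1.27 in MKO against Ctrl and from -2.05 to -1.17 in DKO against MKO.

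Signs turned only for uncalled values. The Tnnt1 interaction was 0.014 with no filter, 0.00011 by DESeq2, 0.0075 by voom and 0.017 with 22 libraries. By voom, Tpm4 in TKO against Ctrl was 0.024, Tnni1 in DKO against Ctrl -0.90, Tnni3 in DKO against Ctrl -0.078, Tpm2 in MKO against Ctrl 0.21 and Tnnt2 in DKO against MKO -0.0084. With the block, Tnni1 in DKO against Ctrl was -0.27 and Tpm2 in MKO against Ctrl 0.0097. With 22 libraries, Tnni3 in DKO against Ctrl was -0.0853, Tpm2 in MKO against Ctrl 0.041, and Tnnt2 and Tnnt1 in DKO against MKO -0.036 and -0.018. Ratios by medians in DKO against MKO were 0.016 for Tnnt1 to Tnnt2, 0.01648 for Tpm3 to Tpm1 and 0.12 for Tpm4 to Tpm1, with 0.013 and 0.053 for the first pair with 22 libraries, and Tpm2 to Tpm1 in TKO against MKO was 0.15.

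Without single libraries, signs turned for Tnnt1 (-0.080 to 0.11) and Tnni1 (-0.018 to 1.91) in the interaction, for Tpm4 (-0.51 to 0.33) in TKO against Ctrl, Tpm3 (-0.10 to 0.084) in TKO against DKO, Tpm2 (-0.23 to 0.13) in MKO against Ctrl, Tnni3 (-0.12 to 0.24) and Tnni1 (-0.89 to 0.56) in DKO against Ctrl, and Tnnt2 (-0.034 to 0.083) and Tnnt1 (-0.016 to 0.10) in DKO against MKO. Among ratios they turned for Tpm2 to Tpm1 in TKO against MKO (-0.27 to 0.23) and Ctrl (-0.052 to 0.46), Tpm4 to Tpm1 in TKO against DKO (-0.41 to 0.0755), Tnnc1 to Tnnt2 in DKO against Ctrl (-0.084 to 0.051), and Tnnt1 to Tnnt2 (-0.074 to 0.052) and Tpm3 to Tpm1 (-0.31 to 0.0532) in DKO against MKO.

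With 22 libraries, list counts moved to 11 (thin filament, TKO against MKO), 4 (thin filament, DKO against MKO), 3 (thin filament interaction, 2 with the block), 11 and 12 (kinases, TKO against Ctrl and MKO), 0 (kinases, DKO against Ctrl, also with the block) and 4 (splicing, TKO against Ctrl). All-gene counts in TKO against Ctrl were 2627 with 22 libraries (1358 higher and 1269 lower, against 1000 and 734) and 2644 by voom, in TKO against DKO 269 with only the 2 groups and 1561 by voom against 784, in TKO against MKO 2892 with 22 libraries and 3202 by voom against 1639, and in DKO against Ctrl 162 by DESeq2 and 313 by voom against 78. Without DKO 1, 2808 genes were called in TKO against Ctrl and 2725 in TKO against MKO, and without Ctrl 2, 585 in the interaction against 57. The lowest counts were those of Tpm2 and Tpm3.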
